A study of Mus musculus with 27 samples.

Results

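Klrd1 and 7 other genes of the cytotoxic lymphocyte programme (Klrc1, Klrk1, Nkg7, Gzma, Gzmb, Prf1 and Ncr1) were examined in colon monocytes, macrophages and cDC1s and in splenic CD4 T cells. Probes were taken where the gene symbol given in the array table was one of these 8 names, which found 11 of the 45281 probes on the array. They cover 7 of the 8 genes, and no probe was listed under Gzma. The set was chosen by the measured genotype difference of Klrd1 in monocytes and macrophages of these same arrays, so the differences between genotypes in those cells are given as descriptions without a test. The comparison of genotypes in cDC1s and the comparisons between cell types are tested.

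Klrd1 encodes CD94, a lectin-like receptor that pairs with an NKG2 chain on the surface of NK cells and some T cells. Klrc1 encodes the inhibitory partner NKG2A, and the pair recognises the non-classical MHC molecule Qa-1, the product of H2-T23. Klrk1 encodes the activating receptor NKG2D, which binds stress-induced ligands and signals through the adaptors Hcst and Tyrobp. Ncr1 encodes the NK cell receptor NKp46. Gzma and Gzmb encode granzymes, Prf1 the pore-forming protein perforin, and Nkg7 a membrane protein of cytotoxic granules.

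The cells were sorted from the colon lamina propria of mice on a C57BL/6 background that had been given 2% DSS, a detergent that injures the colon epithelium, in their drinking water. Mice lacking Mbd2 in every tissue (Mbd2-/-, labelled Mbd2KO), a protein that binds methylated CpG sites, were compared with their WT littermates. Monocytes and macrophages were each represented by 5 WT and 5 Mbd2-/- arrays, and CD11b-negative dendritic cells, called cDC1s in the study, by 2 WT and 3 Mbd2-/- arrays. Splenic CD4 T cells gave 1 array of each genotype, and the labels place them 6 weeks after a T cell transfer without saying whether the genotype is that of the donor or of the host. Each replicate was made from 1 mouse or a pool of several, and the genotypes were matched for age and sex. The sort gates took CD45+ cells without the neutrophil marker Ly6G and the eosinophil marker Siglec-F, and among them CD11b+Ly6C+ monocytes, CD11b+Ly6C- macrophages with MHC-II and F4/80, and CD11b-CD11c+CD103+ cDC1s. They name no marker of T or NK cells to be excluded, and the methods state that purity was checked and high before RNA was isolated.

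Mean intensity over all probes was between 172 and 353 on the 27 arrays, and 16024 to 18608 probes were above background (detection p under 0.05) on an array. WT cDC1 arrays 23 and 26 had means of 292 and 265, with 17635 and 17443 such probes. Mbd2-/- cDC1 arrays 27, 28 and 30 had means of 228, 172 and 193, with 16383, 16572 and 16387. The negative controls of array 23 had an SD of 16.5 and reached 420.5, beside at most 6.69 and 149 on other arrays. The part of these differences in intensity and detection in the cDC1 genotype results was not tested. In the order of the sample records, all monocyte arrays and the WT cDC1 arrays come first. All macrophage arrays and the Mbd2-/- cDC1 arrays follow, and the labels do not say what this order stands for. Genotype in cDC1s cannot be told apart from place in this order, nor can macrophages against monocytes. The Mbd2 probe did not rise above background in either genotype, so it cannot check the labels. Marker genes followed the labelled cell types. Of the 16 genes of a cDC1 list with a probe, all were tested against macrophages and 13 were called higher in cDC1s, 13 of 14 macrophage genes were called lower there, and 6 of 10 monocyte genes tested were called lower in macrophages than in monocytes. Levels below are log2 intensities after background correction and quantile normalization, and a gene is represented by its brightest probe unless another is named.

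Klrd1 was above background on all 25 colon arrays and on both T cell arrays. In monocytes its level was 6.79, 7.86, 7.46, 7.60 and 8.36 on WT arrays 1 to 5 and 6.21, 6.20, 5.80, 5.86 and 6.20 on Mbd2-/- arrays 6 to 10. Every WT monocyte array thus lay above every Mbd2-/- one, with array 1 the closest to them. In macrophages the level was 7.79, 7.85, 7.33, 7.88 and 7.47 on WT arrays 11 to 15 and 7.06, 6.20, 6.32, 6.08 and 5.86 on Mbd2-/- arrays 16 to 20. Again no WT array overlapped an Mbd2-/- array, and array 16 was the highest of the Mbd2-/- macrophages. The difference, Mbd2-/- minus WT, was -1.56 in monocytes (SE 0.239) and -1.36 in macrophages (SE 0.239), or 2.95-fold and 2.57-fold lower. Without background correction it was -0.97 and -0.85, under a log2 difference of 1, and with median scaling -1.88 and -1.34. These are the values for which the gene was chosen. The arrays of 5.12% of all genes tested in monocytes and 5.21% in macrophages did not overlap between genotypes.

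Klrd1 was highest in cDC1s. Its level was 10.1 and 9.27 on WT arrays 23 and 26, and 8.80, 8.47 and 8.88 on Mbd2-/- arrays 27, 28 and 30. The WT arrays did not overlap the Mbd2-/- arrays, and all 5 lay above every monocyte and macrophage array. The genotype difference in cDC1s was -0.98 (SE 0.345, 1.97-fold lower in Mbd2-/-). It did not pass the thresholds, which were an adjusted p under 0.05 and a log2 difference of at least 1 (limma, adjusted p = 0.0853). With median scaling of the arrays it passed them, at -1.51 (limma, adjusted p = 0.0352), while other settings went as far as -0.88. Leaving out 1 cDC1 array at a time gave differences from -1.42, without WT array 26, to -0.55. Median scaling also put the median over all probes in this comparison at -0.37. Some marker sums of other cells differed between genotypes on these arrays without overlap, as did 32.1% of all genes tested in this comparison. Neutrophil markers (10 genes) summed to 732 to 834 in WT and 1226 to 3017 in Mbd2-/- cDC1s, monocyte markers (12 genes) to 7188 to 7425 and 8364 to 10396, and macrophage markers (14 genes) to 6083 to 6265 and 6705 to 11751. The 16 cDC1 genes went the other way, with sums of 22782 to 23464 on the WT arrays against 19292 to 21424 on the Mbd2-/- arrays. So did mast cell and basophil markers (11 genes), at 2387 to 2440 against 1927 to 2372. Plasmacytoid DC and B cell marker sums were higher in Mbd2-/- without overlap. Those of T cells, epithelium, innate lymphoid cells, NK cells and cDC2s overlapped. The part of these transcripts in the genotype differences of the members in cDC1s was not tested. Averaged over genotypes, Klrd1 was 2.23 higher in cDC1s than in macrophages (SE 0.209, 4.68-fold, adjusted p = 5.41e-09) and 2.38 higher than in monocytes (SE 0.209, 5.19-fold, adjusted p = 1.50e-09). Macrophages and monocytes differed by 0.15 (SE 0.169, adjusted p = 0.551), which is within the spread of their arrays. The order of the group means was WT cDC1s (9.70 ± 0.613, SD, n = 2), Mbd2-/- cDC1s (8.72 ± 0.219, n = 3), WT macrophages (7.66 ± 0.248, n = 5), WT monocytes (7.61 ± 0.574, n = 5), Mbd2-/- macrophages (6.30 ± 0.456, n = 5) and Mbd2-/- monocytes (6.05 ± 0.204, n = 5). The neighbours WT macrophages and WT monocytes, and the Mbd2-/- macrophages and Mbd2-/- monocytes, differed by less than the larger of their SDs. In a sorted population a lower level in each cell and fewer cells with the transcript cannot be told apart.

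**Figure D1:**
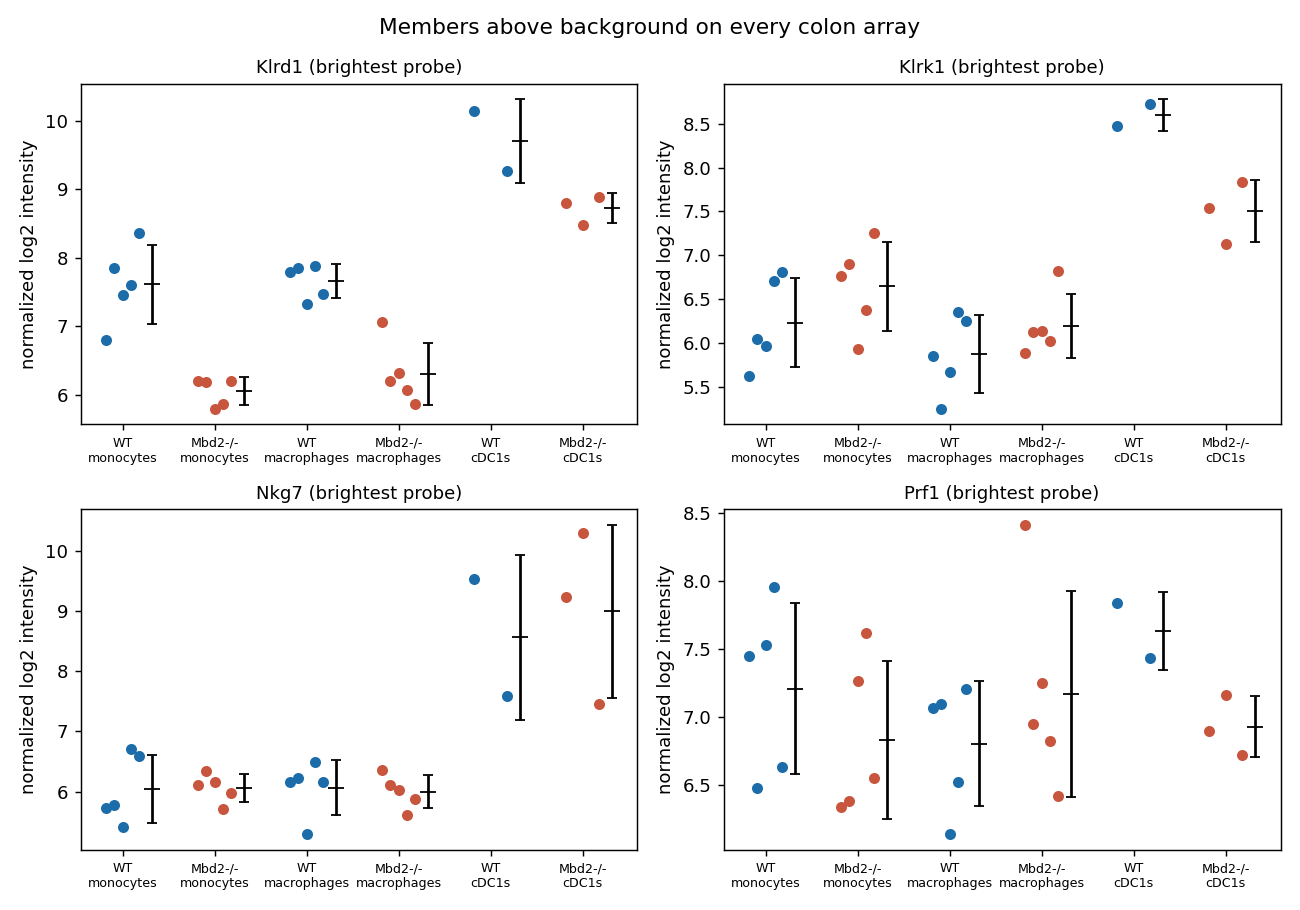
Normalized log2 intensity of the brightest probe of Klrd1, Klrk1, Nkg7 and Prf1 on each of the 25 colon arrays, by cell type and genotype. Points are arrays and bars the mean and SD of a group. Klrd1 of WT arrays lies above that of Mbd2-/- arrays in each cell type, and Nkg7 of cDC1s spreads from 7.45 to 10.3.

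Klrk1, the NKG2D gene, lies next to Klrd1 and is shown here with its promoter because it, unlike Klrd1, was not lower in Mbd2-/- monocytes or macrophages. The promoter windows of RefSeq (assembly GRCm38.p6, 250 bases before to 50 after a gene's start) hold 7 of the 8 members. Klrd1 is the member without a window. Klrk1, chr6:129623815-129624114, minus strand, with each CG in capitals, reads:
Klrk1: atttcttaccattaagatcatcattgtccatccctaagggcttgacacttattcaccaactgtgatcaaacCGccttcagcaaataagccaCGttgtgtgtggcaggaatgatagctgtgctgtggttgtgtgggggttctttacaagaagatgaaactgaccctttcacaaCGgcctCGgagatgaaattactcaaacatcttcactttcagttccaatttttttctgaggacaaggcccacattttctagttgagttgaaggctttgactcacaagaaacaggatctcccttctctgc
It holds 4 CG dinucleotides, and 68.6% of the 32851 windows in the table hold at least as many. The windows of the members hold 0 to 5 CG, with Ncr1 at 0 and Prf1 and Gzma at 5, beside a median of 7 over all windows. DNA methylation was not measured on these arrays.

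The brightest Klrk1 probe was above background on all 25 colon arrays. In monocytes it gave 5.62, 6.05, 5.97, 6.71 and 6.81 on WT arrays 1 to 5 and 6.77, 6.90, 5.93, 6.37 and 7.26 on Mbd2-/- arrays 6 to 10. The genotypes overlapped, and the difference was 0.41 (SE 0.263). In macrophages the WT arrays spanned 5.25 to 6.35 and the Mbd2-/- arrays 5.88 to 6.83, again overlapping, with a difference of 0.32 (SE 0.262). In cDC1s it gave 8.47 and 8.73 on the WT arrays and 7.54, 7.13 and 7.84 on Mbd2-/- arrays 27, 28 and 30. Here every WT array was above every Mbd2-/- array, and the difference of -1.10 (SE 0.379) did not pass the thresholds (limma, adjusted p = 0.0789), which it did with median scaling (-1.66, adjusted p = 0.0274).

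The 4 probes listed as Klrk1 gave unequal differences in cDC1s. Probe ILMN_2692703 gave 8.20 and 6.38 on the WT arrays and 5.94, 4.45 and 5.11 on the Mbd2-/- arrays, a called difference of -2.12 (SE 0.443, limma, adjusted p = 0.00863). Probe ILMN_1236317 gave 7.48 and 5.97 against 5.44, 4.65 and 4.71, a called difference of -1.79 (SE 0.365, adjusted p = 0.00745). On array 28 neither of these probes was above background. In monocytes ILMN_2692703 was above background on 1 of 5 WT and 4 of 5 Mbd2-/- arrays, the opposite order. Probe ILMN_1226816 was above background on 3 colon arrays and differed by 0.30 (SE 0.179, adjusted p = 0.311). Thus 2 of the 4 probes were called lower in Mbd2-/- cDC1s, and the brightest, though lower on all 3 Mbd2-/- arrays, was not. Over all probes tested in this comparison, 1.14% were called lower.

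**Figure D2:**
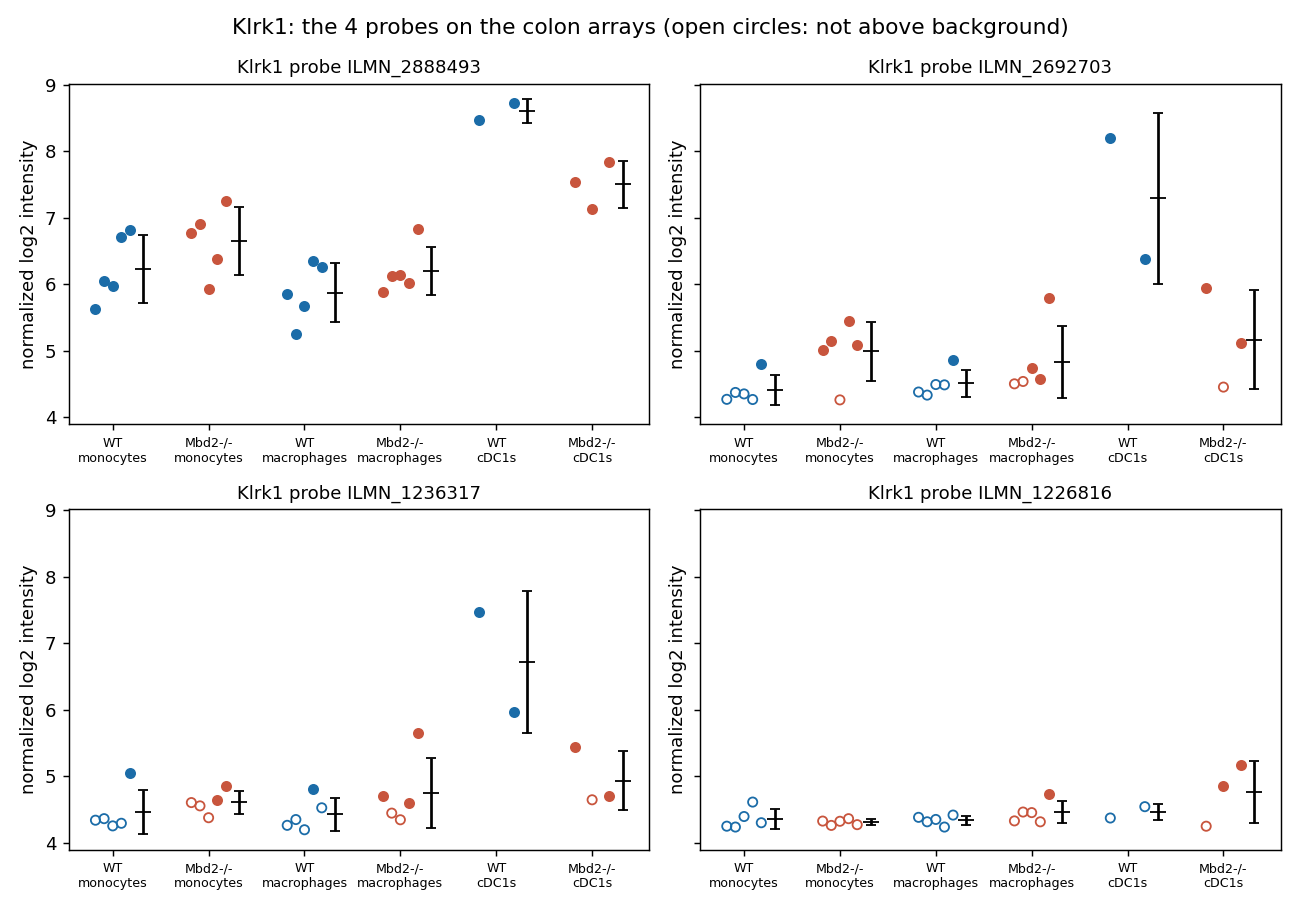
Normalized log2 intensity of the 4 Klrk1 probes on each colon array, with filled circles above background and open circles not, and bars for the mean and SD. ILMN_2888493 is the brightest, and ILMN_2692703 and ILMN_1236317 are those called lower in Mbd2-/- cDC1s (differences of -2.12 and -1.79).

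Between cell types, Klrk1 was 2.02 higher in cDC1s than in macrophages (SE 0.230, 4.05-fold, limma, adjusted p = 1.25e-07) and 1.61 higher than in monocytes (SE 0.230, 3.06-fold, adjusted p = 3.08e-06). Among Mbd2-/- arrays alone the second difference was 0.86 (adjusted p = 0.0234), under the fold threshold. The arrays of cDC1s and macrophages did not overlap, and those of cDC1s and monocytes did. Macrophages were 0.40 lower than monocytes (SE 0.185, adjusted p = 0.101).

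Nkg7 is shown with its promoter because it had the largest difference between cDC1s and the other colon cells among the members. Its RefSeq window is chr7:43436888-43437187, plus strand (GRCm38.p6), with CG in capitals:
Nkg7: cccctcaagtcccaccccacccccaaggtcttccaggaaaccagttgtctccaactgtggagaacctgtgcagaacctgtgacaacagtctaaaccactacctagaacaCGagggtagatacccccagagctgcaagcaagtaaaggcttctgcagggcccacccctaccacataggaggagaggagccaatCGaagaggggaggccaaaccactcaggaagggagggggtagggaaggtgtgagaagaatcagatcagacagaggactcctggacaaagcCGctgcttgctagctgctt
It holds 3 CG dinucleotides, and 76.7% of windows hold at least as many. Nkg7 was above background on every array. In cDC1s it gave 9.53 and 7.60 on WT arrays 23 and 26 and 9.23, 10.3 and 7.45 on Mbd2-/- arrays 27, 28 and 30. Arrays of both genotypes were found at the high and the low end, the overlap was complete, and the genotype difference was 0.43 (SE 0.574, limma, adjusted p = 0.695), with a sign that turned under median scaling or when array 26 or 28 was left out. In monocytes and macrophages all 20 arrays lay between 5.29 and 6.70. The genotype differences there were 0.02 (SE 0.397) and -0.07 (SE 0.397), with overlapping arrays. Nkg7 was 2.75 higher in cDC1s than in macrophages (SE 0.348, 6.72-fold, limma, adjusted p = 6.54e-07) and 2.73 higher than in monocytes (SE 0.348, 6.64-fold, adjusted p = 6.14e-07). Neither comparison had overlapping arrays, as for 18.1% and 21.8% of all genes tested in them.

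Nkg7 moved with T cell transcripts. A list of T cell genes had 25 with a probe, and their summed intensity was 7156 on cDC1 array 28, 6775 on array 23, 3988 on array 27, 2683 on array 26 and 2438 on array 30, which is the order of Nkg7 on these arrays. Of the 17 T cell genes above background on all 5 cDC1 arrays, 5 had this same order of arrays and 14 had the same 3 arrays highest. Cd3d, a chain of the T cell receptor complex, went from 9.63 on array 28 to 6.55 on array 30, and Cd8b1, the CD8 beta chain, was highest on array 28 (9.89) and lowest on array 26 (8.09). Cd8a was above background on 1 and Cd4 on 2 of the 5. On monocyte arrays the summed T cell markers were 1035 to 1820 in WT and 1019 to 1221 in Mbd2-/-, and on macrophage arrays 1110 to 1882 and 1227 to 1497. With genotype means subtracted, Nkg7 and the log2 of that sum had a Pearson r of 0.974 over 10 monocyte arrays (Spearman rho 0.952, and r 0.943 without the 2 arrays farthest from the median sum). Over 10 macrophage arrays r was 0.906 (rho 0.855, and r 0.668 without the 2 farthest). Klrd1 had r of 0.568 and 0.404, Klrk1 0.685 and 0.405, and Prf1 -0.09 and 0.40 over the same arrays, as descriptions of 8 relations in all. Without the 2 farthest arrays r was 0.792 and 0.149 for Klrd1, 0.670 and 0.207 for Klrk1, and -0.44 and 0.40 for Prf1. Arrays share a normalization, so the 2 quantities of a pair are not fully separate measurements.

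**Figure D3:**
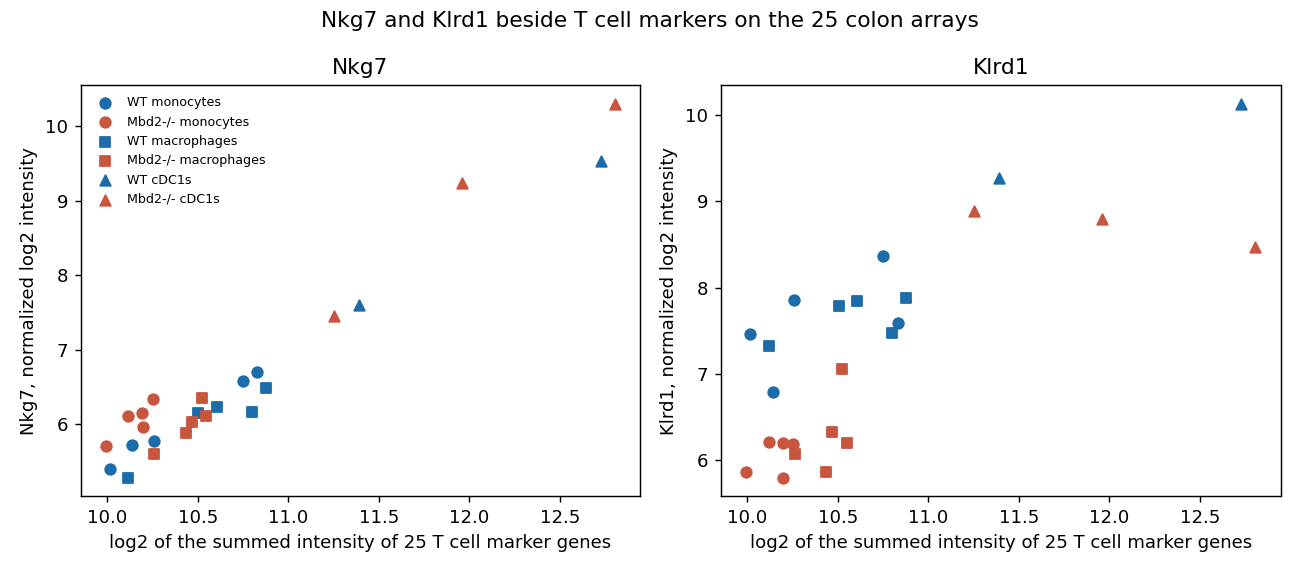
Nkg7 (left) and Klrd1 (right), as normalized log2 intensity, against the log2 of the summed intensity of 25 T cell marker genes on the 25 colon arrays, with cell types as symbols and genotypes as colours. Nkg7 follows the sum on the 5 cDC1 arrays from 7.45 to 10.3. Klrd1 is lowest (8.47) on the cDC1 array with the highest sum (7156), which is an Mbd2-/- array, and between the WT cDC1 arrays it is higher where the sum is higher.

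Klrd1 and Klrk1 did not have this order in cDC1s. Array 28, an Mbd2-/- array and the highest for the T cell markers, was the lowest of the 5 for both. Klrk1 was highest on WT array 26, the fourth for the T cell markers. Between the WT arrays Klrd1 did follow the sum, at 10.1 on array 23 and 9.27 on array 26. Among the Mbd2-/- arrays it went from 8.47 on array 28 to 8.80 on array 27 and 8.88 on array 30 as the sum fell. Leaving out the 3 cDC1 arrays highest in T cell markers, a setting chosen after seeing the data, kept only WT array 26 and Mbd2-/- array 30. Nkg7 was then 1.51 higher in cDC1s than in macrophages, against 2.75 with all 5. The sums of arrays 26 and 30, 2683 and 2438, were still above every monocyte and macrophage array (at most 1882). This setting therefore does not remove T cell transcripts. The part of T cell transcripts in the level of the members was not tested.

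Prf1, perforin, was not called in any comparison. Its brightest probe was above background on all 25 arrays, at 6.48 to 7.95 on WT and 6.34 to 7.62 on Mbd2-/- monocyte arrays, and 6.14 to 7.20 on WT and 6.41 to 8.41 on Mbd2-/- macrophage arrays. In cDC1s it gave 7.84 and 7.43 in WT and 6.90, 7.16 and 6.72 in Mbd2-/-, which did not overlap. The genotype difference there was -0.71 (SE 0.487, limma, adjusted p = 0.395). Between cell types it was 0.29 in cDC1s against macrophages (SE 0.296, adjusted p = 0.463), 0.26 against monocytes (SE 0.296, adjusted p = 0.513) and -0.03 in macrophages against monocytes (SE 0.238, adjusted p = 0.942), and median scaling turned the sign of all 3 differences between cell types. A second Prf1 probe, ILMN_1228333, was above background on 3 colon arrays.

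The remaining members were at or near background in the colon. Ncr1 was above background on 3 of 25 colon arrays, 2 of them cDC1 arrays and 1 of monocytes, with levels of at most 4.72. Gzmb was above background on 0 of 27 arrays. Klrc1, the NKG2A partner of CD94, was above background on 0 of 25 colon arrays and stayed between 4.19 and 4.49. Of the related NKG2 genes, Klrc2 was above background on 2 and Klrc3 on 4 colon arrays. No fold is given for these genes.

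Counted over the members, 4 had probes bright enough for a genotype difference in monocytes and in macrophages (Klrd1, Klrk1, Nkg7 and Prf1), and the lower Klrd1 there is what chose the set. Over all genes compared by their brightest probe 0.142% were called lower in Mbd2-/- monocytes and 0.16% in macrophages, from which nothing is read about the members. In the cDC1 comparison 5 members were tested, Ncr1 being the fifth, and 0 were called (limma), beside 0.996% of genes called lower and 0.842% called higher. An unadjusted p under 0.05 was found for 2 of the 5, Klrd1 and Klrk1, with adjusted p-values of 0.0853 and 0.0789. When any probe of a gene could call it, 1 member was called, Klrk1. The arrays of 3 of the 5 did not overlap between genotypes, while 32.1% of all genes tested did not overlap in this comparison of 2 with 3 arrays. Against macrophages 3 of 5 members were called higher in cDC1s, where 5.54% of genes were (7.13% lower), and against monocytes 3 of 5, where 6.34% were (7.24% lower). Between macrophages and monocytes 0 of 4 were called (limma), beside 2.4% of genes higher and 2% lower. There 1 of the 4, Klrk1, had an unadjusted p under 0.05 (limma, adjusted p = 0.101). The shares of all genes under that unadjusted p are not given here, so nothing is read from these counts.

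**Figure D4:**
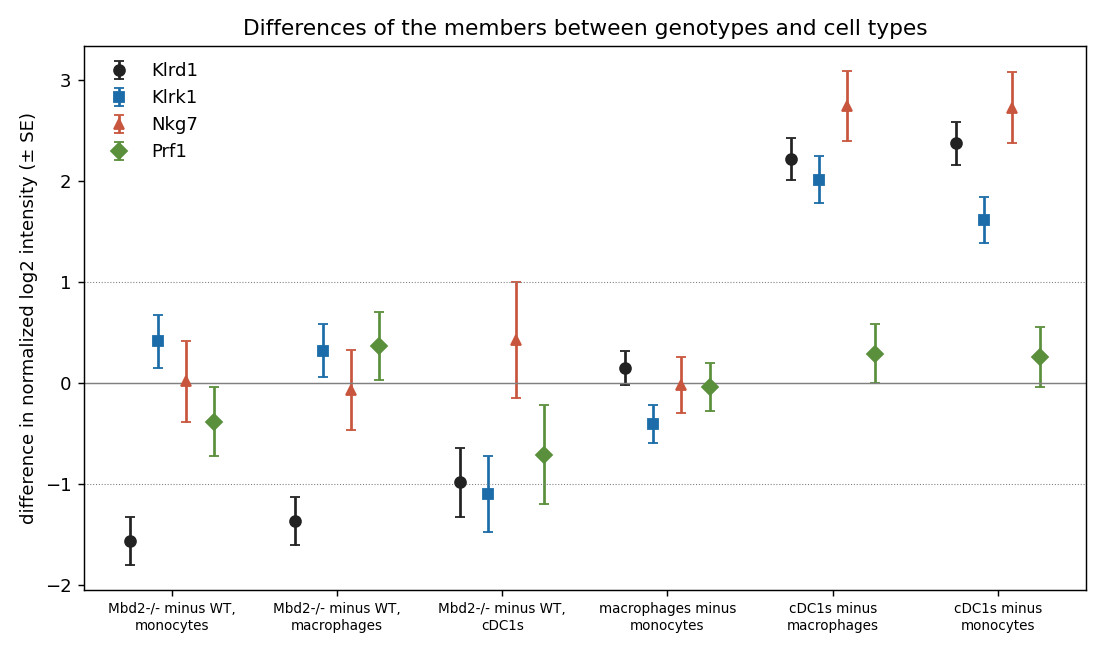
Differences in normalized log2 intensity of Klrd1, Klrk1, Nkg7 and Prf1 (brightest probes) in the 6 comparisons, with bars of 1 SE from the limma fit and dotted lines at a difference of 1. In cDC1s against macrophages, Klrd1, Klrk1 and Nkg7 lie at 2.23, 2.02 and 2.75 and Prf1 at 0.29.

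The wider receptor and adaptor genes of NK cells divided by cell type. Of 35 with a probe, 31 were tested in cDC1s against macrophages, 6 were called higher and 5 lower, and their median difference was 0.15 beside -0.02 over all genes tested. Klri1, a lectin-like receptor gene of the same chromosomal cluster, was 3.00 higher in cDC1s (SE 0.194, limma, adjusted p = 8.05e-12) and Klre1, the neighbour of Klrd1, 2.04 higher (SE 0.159, adjusted p = 2.28e-10), with Klre1 above background on 7 of 10 macrophage arrays. Cd160 was 1.64 higher (above background on 9 of 10 macrophage arrays), and Klra7 was also called higher (4 of 10). Klra2, an inhibitory Ly49-family receptor, was at -4.45 in cDC1s against macrophages (SE 0.140, limma, adjusted p = 2.35e-17). It was above background on 3 of 5 cDC1 arrays, all of them Mbd2-/-. The Fc receptor gene Fcgr3 was at -4.43 (adjusted p = 2.38e-17). Sh2d1b1, an adaptor of SLAM-family receptors, was at -1.97 and above background on 4 of 5 cDC1 arrays.

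Against monocytes, 10 of 29 tested were called higher in cDC1s and 4 lower, with a median of 0.29 beside -0.02. The fitted difference was 3.85 for Klri1 (adjusted p = 7.72e-14), 2.19 for Klre1, 1.81 for Sh2d2a and 1.74 for Cd160. Of the 10 monocyte arrays only 3 had Klri1 above background, 4 Klre1 and 6 Cd160, so the sizes for these genes rest partly on background and are not ranked. Of 25 tested in macrophages against monocytes, 4 were called higher and 0 lower. These were Sh2d1b1 (1.42, adjusted p = 5.36e-08), Klrb1b (1.40, adjusted p = 1.57e-07), Klra3 (1.22, adjusted p = 7.06e-07) and Cd226, which was above background on 0 of 10 monocyte arrays and was at least 1.96-fold higher in macrophages (adjusted p = 2.25e-06). In the cDC1 genotype comparison 25 were tested and 0 were called (limma), with a median of -0.05 beside 0.05. An adjusted p under 0.05 without the fold threshold was found for 2, both higher in Mbd2-/-. One was Klra2 (0.84, limma, adjusted p = 0.0332), above background on 0 WT arrays, so its size rests partly on background. The share of all genes at that adjusted p alone is not given here, so nothing is read from this count.

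Of the adaptors, Tyrobp (DAP12) and Fcer1g were lower in cDC1s. Tyrobp had means of 11.0 in WT and 11.2 in Mbd2-/- cDC1s, 12.2 and 12.3 in macrophages and 12.4 and 12.5 in monocytes, a difference of -1.12 in cDC1s against macrophages (SE 0.0666, limma, adjusted p = 1.65e-12). Fcer1g, the common gamma chain of Fc receptors, differed by -2.85 (SE 0.0771, adjusted p = 1.61e-18). Hcst (DAP10), the adaptor of NKG2D, differed by -0.29 (SE 0.151, adjusted p = 0.133). In cDC1s the genotype differences were 0.26 for Tyrobp (adjusted p = 0.163), 0.32 for Fcer1g (adjusted p = 0.138) and 0.54 for Hcst (adjusted p = 0.190).

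Among the genes of the ligands, H2-T23, which encodes Qa-1, was at 12.1 to 12.9 in all 6 colon groups. It was 12.3 in WT and 12.9 in Mbd2-/- monocytes, 12.1 and 12.8 in macrophages, and 12.5 and 12.4 in cDC1s, where the genotype difference was -0.12 (SE 0.268, limma, adjusted p = 0.835). The NKG2D ligand gene Raet1b was lower in macrophages than in monocytes (-1.27, SE 0.119, adjusted p = 1.38e-08) and lower in cDC1s than in monocytes (adjusted p = 1.08e-10), where it was above background on 1 of 5 cDC1 arrays, so no size is given. Clec2d, a ligand of NKR-P1 receptors, was lower in cDC1s than in monocytes (-1.51, adjusted p = 1.04e-09). Of 10 ligand genes with a probe, 6 were tested between cell types and these were all the calls, while 4 were tested between genotypes in cDC1s and 0 were called (limma).

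The genes of granules, death ligands and their regulators had 30 with a probe. Of 26 tested in cDC1s against macrophages, 9 were called higher and 2 lower, with a median of 0.11 beside -0.02. Serpinb6b, of a family of protease inhibitors, was 3.43 higher (SE 0.248, limma, adjusted p = 5.82e-11). Ctsw, a cathepsin of cytotoxic lymphocytes, was 2.60 higher (SE 0.283, adjusted p = 6.03e-08), the chemokine gene Xcl1 2.49 higher and the T-box factor gene Tbx21 1.69 higher, these last 2 above background on 6 of 10 macrophage arrays each. Ccl3 was at -2.45 and Ctsc, which activates granzymes, at -2.15. Against monocytes 7 of 26 were higher and 3 lower, led by Serpinb6b at 3.99 and Ctsc at -1.93. Between macrophages and monocytes 1 of 22 was higher (Ccl3, 1.18) and 1 lower (Rab27a, -1.33), and in the cDC1 genotype comparison 0 of 20 were called (limma).

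Defining markers of NK cells, members left out, were near background in cDC1s except for Klre1. Of the 5 on a short list with a probe, members left out, Klrb1c was above background on 1, Eomes on 1, Klra4 on 3 and Itga2 on 0 of the 5 cDC1 arrays, with levels of at most 5.05. Klre1 was above background on all 5, at 6.12 to 7.53. Of the members on this list, Prf1 was above background on 5 and Ncr1 on 2 cDC1 arrays. The summed intensity of the 5 genes without members was 183 to 271 on WT and 152 to 223 on Mbd2-/- cDC1 arrays. It was 101 to 128 on monocyte and macrophage arrays, below every cDC1 array. Of the T cell list, 10 of 23 tested were called higher and 2 lower in cDC1s than in macrophages, among them Cd8b1 (3.54), Cd3g (2.55), Ctla4 (2.07) and Cd3e (2.04), with Cd4 at -1.60 (above background on 2 of 5 cDC1 arrays) and Cd2 at -1.05 (3 of 5). The median of the list was 0.97 beside -0.02. Against monocytes 13 of 21 were called higher, with a median of 1.21. In the cDC1 genotype comparison 0 of 20 were called (limma). The mast cell gene Mcpt1 was 2.38 higher in cDC1s than in macrophages (limma, adjusted p = 9.00e-04, above background on 4 of 5 cDC1 arrays) and Kit 2.46 higher. Epithelial markers gave 10 of 11 genes above background on every colon array, with sums of 4801 to 17952, and 0 of 10 were called in any of the 4 comparisons tested. The part of these transcripts in the results was not tested.

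On chromosome 6 (RefSeq order, GRCm38.p6) Klrd1 lies between Klre1 and Klrk1. Of the 8 protein-coding genes on each side, 14 of 16 have a probe. In cDC1s against macrophages 12 were tested, and 4 were called higher (Clec9a, Klre1, Klrk1 and Klri1) and 2 lower (Clec7a and Klra17). In the cDC1 genotype comparison 9 were tested and 0 called (limma). The differences in Mbd2-/- against WT monocytes were between -0.49 (Klri2) and 0.55 (Klra17) for the 6 neighbours tested there, and in macrophages between -0.48 (Klra17) and 0.60 (Clec1b) for 9.

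Klrd1 was also compared with every other gene above background on at least 5 colon arrays, 14169 in all, by Pearson r over the 25 arrays. The 10 most alike were LOC100045877 (r = 0.904), Chn2 (0.898), LOC100043671 (0.893), Dyrk3 (0.891), Aldoc (0.878), Man1b1 (0.877), Pacs1 (0.877), Nav1 (0.877), Bzrap1 (0.876) and Acot7 (0.870). All 10 had their 2 highest group means in cDC1s, so this likeness is mostly between cell types. No member was among these 10. The r of Klrd1 was 0.701 with Nkg7, 0.564 with Klrk1 and 0.196 with Prf1. With group means subtracted, the most alike were 5830433M19Rik (0.718), Ddx25 (0.700), Abhd7 (0.699), Zcchc18 (0.670), Ms4a5 (0.660), Eif2b4 (0.655), Jtb (0.640), Pyroxd1 (0.638), H2-Ob (0.634) and Wdr17 (0.628), and no gene was on both lists. Klrd1 then had r of 0.355 with Nkg7, 0.255 with Klrk1 and 0.07 with Prf1. Of the second list, 5830433M19Rik, Ddx25, Abhd7, Ms4a5 and Wdr17 had group means between 4.33 and 5.18, near background. Their r rests partly on variation there. Arrays share depth and normalization, and these are descriptions.

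The 2 arrays of splenic CD4 T cells gave levels of the same probes in lymphocytes. On 27 arrays normalized together, Nkg7 was at 12.7 on the WT and 13.1 on the Mbd2-/- T cell array, above all 25 colon arrays (5.28 to 10.3). Prf1 was at 9.13 and 11.0, above the colon range of 6.13 to 8.39, and its second probe at 6.56 and 8.36 against at most 4.65 in the colon. Klrc1 was above background on both, at 5.61 and 5.07, against at most 4.49 in the colon. Klrd1 was at 9.54 and 8.67, within the colon range of 5.79 to 10.1, with 1 colon array above both. Klrk1 was at 5.63 and 5.27, and 23 of 25 colon arrays were above both. Gzmb and Ncr1 were not above background on either. With 1 array for each genotype the differences have no replicate check and no test. Mbd2-/- minus WT was -0.87 for Klrd1 and 1.83 for Prf1, with bead errors of 0.0625 and 0.0690, which cover the spread of the beads only. With median scaling they were -1.42 and 0.89. The difference of Nkg7 changed sign with the scaling and is given no direction.

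**Figure D5:**
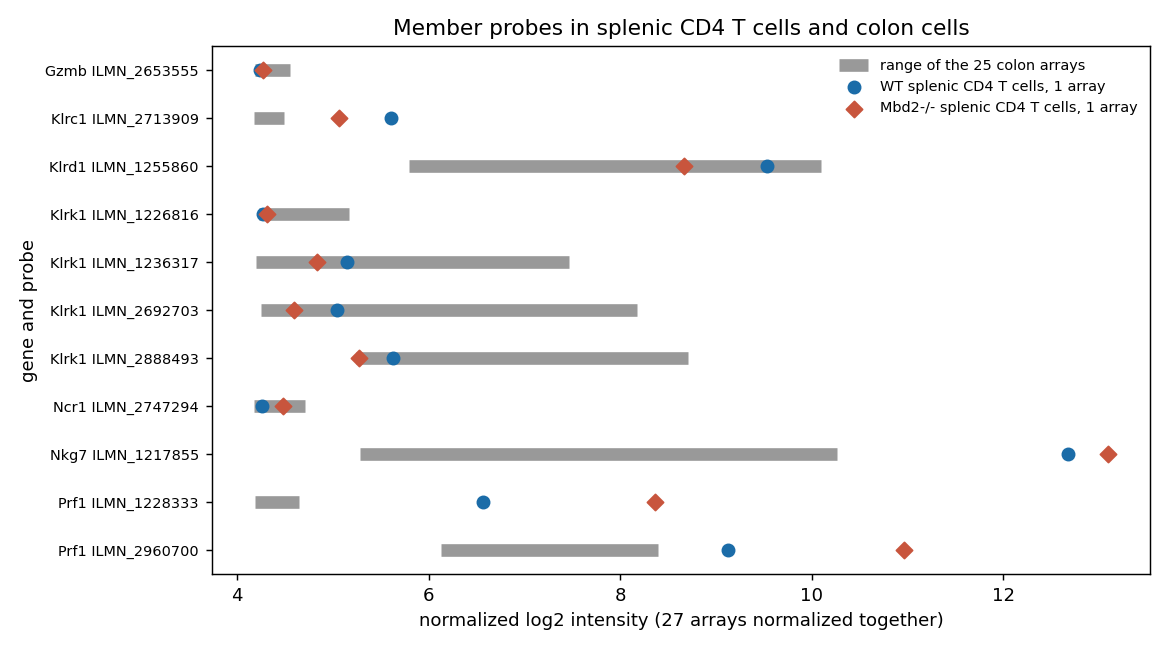
Normalized log2 intensity (27 arrays together) of the 11 member probes on the WT and Mbd2-/- splenic CD4 T cell arrays (points), with the range of the 25 colon arrays as a grey bar. Nkg7, both Prf1 probes and Klrc1 lie above the colon range, and Klrd1 (9.54 and 8.67) within it.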

How the data were processed

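RNA of sorted mouse cells was measured on Illumina MouseWG-6 BeadChips. The authors deposited intensities, the mean brightness of the beads of a probe, without normalization or background subtraction per the file headers. Beside them the authors deposited a detection p-value against the negative controls of the same array. The submitters' processing notes name lumi and limma. The signals of 3 columns could not be tied to a sample and were not used.

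Background was corrected by normexp with 936 negative control probes (offset 16). The 25 colon arrays, or all 27 for T cells, were quantile normalized and taken to log2 (R 4.3.3, limma 3.58.1, data.table version 1.17.8). A single limma model over the 6 groups gave two-sided tests, adjusted by Benjamini-Hochberg over all probes of a comparison. Probes entered a comparison if detected (p under 0.05) on enough of its arrays. The number needed was the size of its smallest group of cell type and genotype. Calls needed an adjusted p under 0.05 together with a log2 difference of 1 or more in size. The brightest probe over the colon arrays stood for its gene. The fit was also run on simulated data, with independent noise around a common mean of each probe and known shifts added. These data held no array effects and no transcripts of other cells. The outcome is not given here, and no result rests on it.

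The members and gene lists were chosen with earlier results of these data known. Named from each list were up to 4 called genes per direction in a comparison, with Tyrobp, Hcst, Fcer1g and H2-T23 always given, and the 10 genes most like Klrd1. Chromosome 18 was left out. The labels do not say which arrays came from which experiment, so p-values measure the spread between these arrays, whose number limits the precision. The methods and the deposited record differ on the size of the pools and on the kit for RNA.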

Additional observations from a re-analysis of the deposited data

Results flagged for a closer look

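Dixon's test was applied to 16 groups of 5 arrays (Klrd1, Klrk1, Nkg7 and Prf1 in monocytes and macrophages of each genotype), and chance alone picks out about 1 in 20 such groups. In 2 groups a single array stood apart from the others. Klrk1 was 6.83 on Mbd2-/- macrophage array 20, with the next highest array at 6.13. Nkg7 was 5.29 on WT macrophage array 13, with the next lowest at 6.16, and this array also had the lowest summed T cell markers of the WT macrophages (1110). No cause was tested.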

How the results depend on the processing

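Under no background correction the Klrd1 difference, Mbd2-/- minus WT, was -0.97 in monocytes and -0.85 in macrophages, both under the fold threshold, and leaving out 1 array at a time gave -1.76 to -1.37 and -1.55 to -1.25. In the cDC1 genotype comparison 2 members were called with median scaling and 1 when any probe could call its gene, and leaving out 1 array gave 0 to 1 (Klrd1 without WT array 26, where the lone WT array is assumed to vary like the other groups). The 3 calls in cDC1s against macrophages, and the 3 against monocytes, stayed at 3 whichever macrophage, monocyte or Mbd2-/- cDC1 array was left out. Klrk1 against monocytes fell under the fold threshold in Mbd2-/- arrays alone, at 0.86, which left 2 calls there. With median scaling the median difference over all probes was -0.37 in the cDC1 genotype comparison and -0.38 in T cells, against 0.03 and -0.02 with quantile normalization.

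Several small differences changed sign. With median scaling, Nkg7 was -0.15 in the cDC1 genotype comparison and 0.078 in macrophages against monocytes, and Prf1 was 0.010 in macrophages against monocytes, -0.17 in cDC1s against macrophages and -0.16 in cDC1s against monocytes. Nkg7 in macrophages against monocytes was 0.025 with array weights and 0.026 in WT arrays alone. In Mbd2-/- arrays alone Prf1 was 0.34 in macrophages against monocytes and -0.24 in cDC1s against macrophages. Leaving out 1 array gave -0.54 to 1.40 for Nkg7 in the cDC1 genotype comparison, -0.097 to 0.080 for Nkg7 in macrophages against monocytes and -0.19 to 0.067 for Prf1 there. Klrk1 probe ILMN_1226816 gave 0.30 in the cDC1 genotype comparison. Klrd1 in T cells was -1.42 with median scaling. The causes were not tested. A position block could not be fitted to the cDC1 genotype comparison, whose WT arrays all come before its Mbd2-/- arrays in the order of the sample records. No paired analysis was possible because the array numbers in the labels are unique to each sample.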
